A study of Mus musculus with 12 samples.

Results

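Transcripts of 10 genes that coat lipid droplets or take their triglyceride apart were followed in mouse liver: the perilipins Plin2, Plin3, Plin4 and Plin5, the lipases Pnpla2, Pnpla3, Lipe and Mgll, the lipase activator Abhd5 and the lipase inhibitor G0s2. They were chosen by gene symbol from a count table of 55291 genes, and all 10 were among the 18305 genes with counts high enough to test. The libraries came from liver of male C57BL/6 mice that entered the study at 6 weeks of age, with 3 libraries in each of 4 groups. HFD+AE mice ate a high-fat diet for 8 weeks and then trained by AE for at least 12 weeks. HFD+RE mice had the same diet and time course with training by RE. HFD mice had the high-fat diet without training, with the same 8 weeks listed, and NC mice had the normal diet. How long HFD and NC mice were kept beyond that is not listed, so equal age and diet time at sampling cannot be assumed. AE and RE are given as abbreviations only, and all 3 HFD groups carried the same diet, so the training comparisons are within high-fat feeding. The labels do not state whether libraries within a group are different mice, so p-values measure the spread between these libraries, which may be technical. In whole liver RNA, fewer cells of a type and less RNA per cell cannot be told apart.

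Hepatocytes store fatty acids as triglyceride in droplets covered by perilipins, which limit the access of lipases. Triglyceride is cut first by ATGL, the product of Pnpla2, then by hormone-sensitive lipase from Lipe, and the remaining monoglyceride by the lipase from Mgll. ATGL is activated by CGI-58, the product of Abhd5, and blocked by the small protein G0S2, so the balance of both regulators is a known control point of hepatic lipolysis. Plin5 couples droplets to mitochondria, Plin4 is best known from adipocytes, and Pnpla3, a close relative of Pnpla2, encodes a droplet protein whose human form is linked to fatty liver.

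The stretches upstream of 4 of the genes are shown because these 4 carried the diet differences described below: Plin4 and Abhd5 passed the test, and G0s2 and Mgll had the largest fitted increases without passing it. Each is the 250 bases before the RefSeq start site in GRCm38.p6, written 5′ to 3′ on the gene's own strand. Plin4 is chr17:56109783-56110032 on the minus strand, Abhd5 is chr9:122351366-122351615 on the plus strand, G0s2 is chr1:193273189-193273438 on the minus strand and Mgll is chr6:88724162-88724411 on the plus strand, the first of the 2 RefSeq starts that the reference table lists for that gene. Capitals mark matches, on either strand, to 6 sequences: the TATA box TATAAA, the CCAAT box, the GC box GGGCGG, the nuclear receptor core AGGTCA, the E-box CACGTG and the forkhead sequence GTAAACA.
Plin4: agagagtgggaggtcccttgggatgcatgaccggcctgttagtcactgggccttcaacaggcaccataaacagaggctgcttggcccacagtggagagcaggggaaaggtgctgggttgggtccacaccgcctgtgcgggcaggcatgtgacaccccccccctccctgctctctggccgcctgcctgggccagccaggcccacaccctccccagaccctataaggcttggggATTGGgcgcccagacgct
Abhd5: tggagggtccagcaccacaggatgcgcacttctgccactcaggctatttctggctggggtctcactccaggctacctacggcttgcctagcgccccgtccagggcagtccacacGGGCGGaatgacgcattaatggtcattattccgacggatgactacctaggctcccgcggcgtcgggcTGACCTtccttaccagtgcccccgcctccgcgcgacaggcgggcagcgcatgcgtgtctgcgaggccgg
G0s2: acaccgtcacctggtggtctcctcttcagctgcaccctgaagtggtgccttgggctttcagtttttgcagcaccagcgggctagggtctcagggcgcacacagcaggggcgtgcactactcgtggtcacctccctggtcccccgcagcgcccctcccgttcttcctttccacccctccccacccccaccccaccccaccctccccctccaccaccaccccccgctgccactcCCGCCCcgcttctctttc
Mgll: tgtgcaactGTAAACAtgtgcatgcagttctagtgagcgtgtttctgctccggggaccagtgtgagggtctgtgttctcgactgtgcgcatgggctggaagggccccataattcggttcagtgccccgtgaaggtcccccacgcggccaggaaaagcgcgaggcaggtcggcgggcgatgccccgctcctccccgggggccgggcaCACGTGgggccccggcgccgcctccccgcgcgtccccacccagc

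Plin4 held 1 CCAAT box, which began 18 bases before the start, and such a box was present in 33.9% of 32841 RefSeq mouse promoter windows of the same length. Abhd5 held a GGGCGG box 136 bases and an AGGTCA element 69 bases before the start, which 32.7% and 14.0% of all windows contained. That core is bound by nuclear receptors. G0s2 held a GGGCGG box 18 bases before the start. Mgll held an E-box 44 bases and a forkhead sequence 241 bases before the start, which 6.02% and 3.17% of all windows contained. The window of the other Mgll start held neither of these, and had a GC box 121 bases before that start. Over the 13 windows, 9 had a GC box, 5 a CCAAT box and 3 the nuclear receptor core, the E-box and the forkhead sequence were in 2 each, and the TATA box, present in 12.4% of all windows, was in none. These are matches of letters and are not evidence of binding.

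Plin4, at chr17:56100591-56109803, Plin5, at chr17:56111601-56117596, and Plin3, at chr17:56277476-56292873, lie near each other on the minus strand in mm10, and Plin2 is at chr4:86648386-86670060. The lipases are Pnpla2 at chr7:141455198-141460743, Lipe at chr7:25379527-25398710, Pnpla3 at chr15:84167837-84187236 and Mgll at chr6:88724412-88828360. Abhd5 is at chr9:122351608-122381524 and G0s2 at chr1:193272161-193273217. Exons of 5 genes share bases with an exon of another gene, and the counting strand is not given in the sources used here. The shared part was 15.95% of the exon bases of Abhd5, 15.6% of Lipe, 6.78% of Pnpla3, 3.29% of Mgll and 0.268% of Plin4. The overlapping transcript of Abhd5, A730085K08Rik, had at most 27 counts in any library.

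Per length, the 10 genes spanned a wide range. In HFD livers G0s2 was the highest, at 503 ± 169 TPM (transcript counts scaled for gene length and library total; mean ± SD, n = 3), followed by Plin2 at 323 ± 28.5 TPM and Mgll at 210.3 ± 42.7 TPM. In NC livers Plin2 led at 301 ± 81.8 TPM, then G0s2 at 179 ± 161 TPM and Mgll at 85.7 ± 43.4 TPM. Pnpla2, Plin5, Plin3 and Plin4 lay between 29.5 and 58.5 TPM in HFD livers and between 12.5 and 66.8 TPM in NC livers. Abhd5 and Lipe were low, at 6.02 and 5.54 TPM in HFD livers and 9.41 and 3.77 TPM in NC livers. Pnpla3 was near the limit of detection, with 0.344 TPM in HFD livers and 0.592 TPM in NC livers, from 3 to 67 counts in a library.

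Library totals ran from 44373214 to 77665729 counts. Before the results, 3 libraries need to be named, since they stood apart from the rest of their group. On the first principal component of log2 CPM (counts scaled to the library total), HFD+AE 3 lay at 14.0 against -40.4 and -36.9 for HFD+AE 1 and 2, and HFD+RE 3 lay at -36.6 against 50.4 and 52.6 for HFD+RE 4 and 5. HFD 2 lay at 23.0 against 67.4 and 80.8 for HFD 1 and 3. Without HFD 2 the number of genes called in HFD+AE vs HFD was 1691, against 9 with all libraries, while none of the 10 genes gained or lost a call in any comparison. A length measure, the rank correlation over genes of a library's relative level with gene length, split the trained groups in the same way. It was 0.29, 0.29 and -0.03 for HFD+AE 1, 2 and 3. For HFD+RE 3, 4 and 5 it was 0.22, -0.29 and -0.31. It was -0.26, -0.15 and -0.29 in the HFD libraries, against 0.20, 0.21 and 0.08 in NC 2, 4 and 5, so it also separated the diets. Mitochondrial ribosomal RNA took 1.76% to 3.26% of the counts in HFD libraries, against 0.708% to 0.924% in NC libraries. For the training comparisons, values without HFD+AE 3 and HFD+RE 3 are given beside the genes in which those libraries lay apart.

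**Figure D1:**
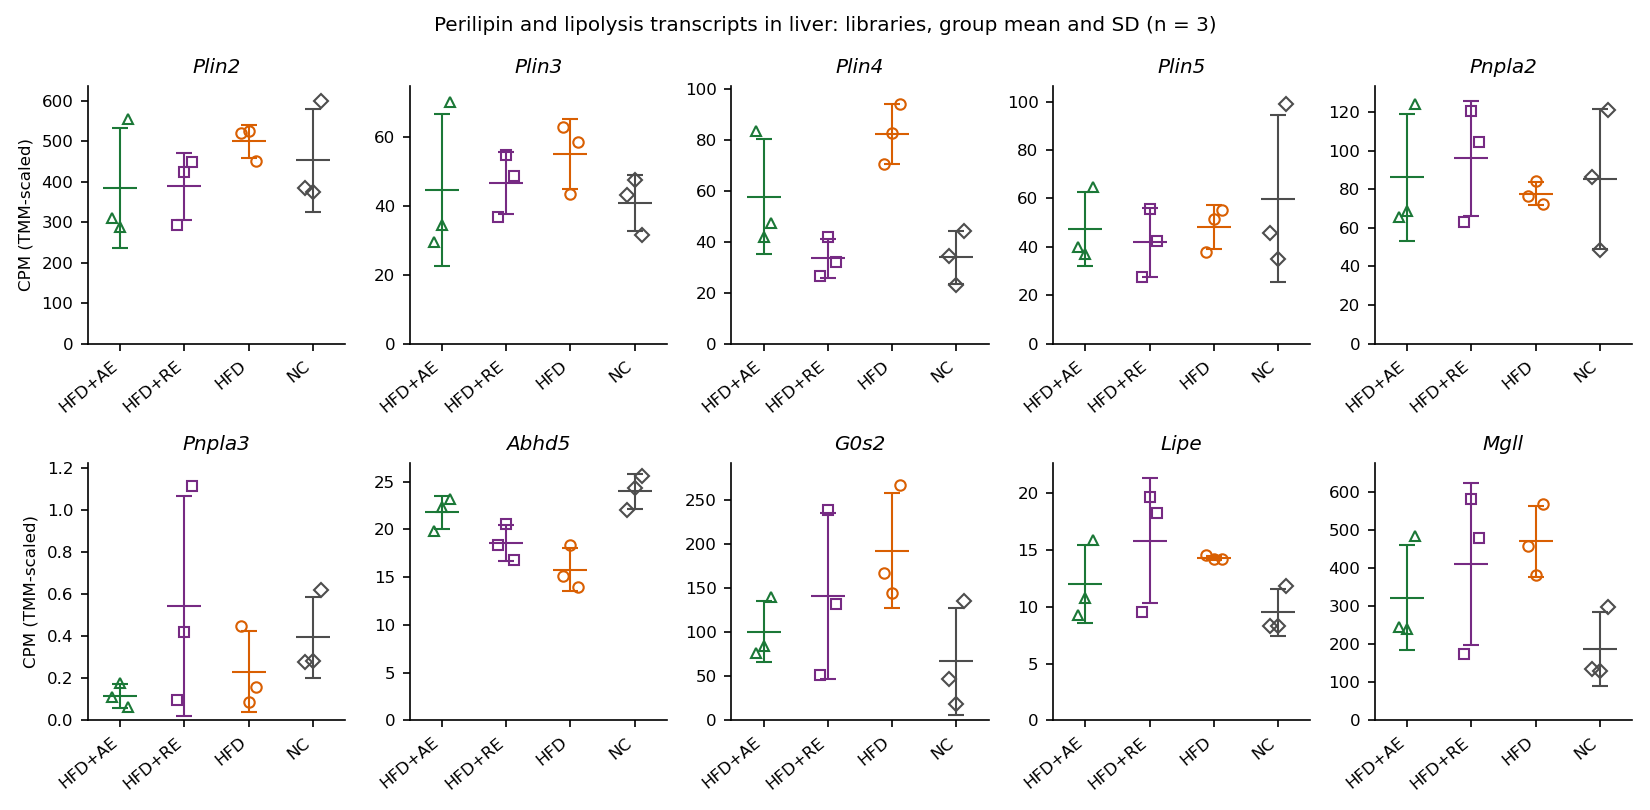
Each panel plots 1 gene in TMM-scaled CPM (y axis, from 0) for the HFD+AE, HFD+RE, HFD and NC groups (x axis), with open symbols for the libraries and a line and bars for the mean and SD of 3. The 3 HFD libraries of Plin4 lie at 70.7 to 94.1 CPM, above all NC libraries, and the 3 HFD libraries of Abhd5 lie at 13.9 to 18.4 CPM, below all NC libraries.

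HFD livers had more Plin4 and less Abhd5 transcript than NC livers. Both differences passed the test, and the calls held in 15 of 19 alternatives for Plin4 and 11 of 19 for Abhd5. The transcripts of G0s2, Mgll and Lipe were also higher in each HFD library than in any NC library, without passing it. So 2 of the 10 genes were called, where 15.6% of all tested genes were called, with 1 higher (8.38% of all) and 1 lower (7.19% of all). The groups did not overlap for 5 of the 10, where they did not for 46% of all tested genes, and 5 of the 10 had an unadjusted p under 0.05, where 34.7% of all did. These shares lie near the background and single out nothing about the 10. The median log2 change of the 10 was 0.29, against 0.01 over all genes tested.

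Among the droplet coats, Plin2, the main perilipin of hepatocytes, had 520, 526 and 452 CPM in the HFD libraries, against 385, 375 and 600 CPM in the NC libraries. The groups overlapped, with NC 5 the highest of the 6 libraries. The fitted log2 difference was 0.14 ± 0.28 (SE; edgeR adjusted p = 0.745).

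Plin3, a coat protein that moves between cytosol and droplets, had 63.0, 43.6 and 58.7 CPM in HFD and 43.3, 47.5 and 31.6 CPM in NC livers. HFD 2 fell among the NC libraries. Its log2 difference of 0.43 ± 0.30 did not pass (adjusted p = 0.315).

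Plin4, which coats droplets in adipocytes and, at a low level, elsewhere, had 70.7, 82.7 and 94.1 CPM in HFD libraries, against 34.5, 23.3 and 44.2 CPM in NC libraries. The groups were fully separate. Plin4 rose 2.43-fold, a log2 change of 1.28 ± 0.29 (adjusted p = 0.0169). With the trend of counts on gene length removed from each library the log2 change was 1.44 (adjusted p = 0.0122). The call was lost, at adjusted p of 0.0549, 0.0731 and 0.08, when NC 2, NC 4 or HFD 3 was left out.

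Plin5 had 38.0, 51.5 and 55.1 CPM in HFD livers and 45.7, 35.0 and 99.1 CPM in NC livers. NC 5 was far above the other libraries and the groups overlapped. The fitted log2 difference was -0.31 ± 0.37 (adjusted p = 0.562), and it was 0.26 without NC 5.

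Plin4 and Lipe are also transcripts of adipocytes. Of 10 adipocyte markers, Lep was at 0 counts in all 12 libraries, Plin1, the perilipin of adipocytes, was at 0 in 10 of the 12 and reached 8 counts at most, and Adipoq and Retn had at most 4 counts. Of the whole list, 5 of the 10 were higher in every HFD library than in any NC library, and of the 5 with counts high enough to test 3 rose, Cfd, Cidec and Fabp4. Over all tested genes the groups did not overlap, in either direction, for 46%, and 8.38% were called higher. The markers that were higher in every HFD library include Lipe itself and Adig, which had at most 8 counts. Cfd, an adipocyte protease, had 9.77, 45.01 and 5.56 CPM in HFD 1, 2 and 3, against 0.762 to 0.854 CPM in NC libraries, so that HFD 2 set most of its mean. Cidec had 26.8 to 49.0 CPM in HFD and 5.74 to 11.1 CPM in NC libraries, and Fabp4, a fatty acid carrier, 6.60 to 10.6 CPM in HFD and 4.39 to 5.61 CPM in NC libraries. Adig had at most 0.136 CPM in HFD and 0.0744 CPM in NC libraries. The 10 markers, which include Lipe itself, summed to 3461 to 4358 CPM in HFD libraries, against 2471 to 3856 CPM in NC libraries, and Car3, which hepatocytes express, made up most of this sum. The part of adipocyte RNA in the differences of Plin4 and Lipe was not tested.

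Some markers of other liver cells differed with the diet as well, and their counts stand against 8.38% of all tested genes called higher and 7.19% called lower. The 11 stellate cell markers summed to 372 to 489 CPM in HFD libraries, against 207 to 236 CPM in NC libraries, and 6 of them rose. The 12 lymphocyte markers summed to 27.5 to 77.5 CPM in HFD and 17.1 to 31.4 CPM in NC libraries, with 6 called higher, and the 9 hepatocyte markers found in the table summed to 63768 to 92677 CPM in HFD and 114845 to 135120 CPM in NC libraries. Alb, the albumin gene, made up 57.6% to 65.3% of that sum in HFD libraries, against 69.2% to 74.2% in NC libraries. Among the 9, Alb, Hnf4a and Cps1 fell, while Ttr, at 5962 to 7751 CPM in HFD and 4107 to 5642 CPM in NC libraries, and Asgr1, at 524 to 587 CPM in HFD and 322 to 394 CPM in NC libraries, were higher in every HFD library without passing. The 10 endothelial markers summed to 132 to 202 CPM in HFD and 269 to 338 CPM in NC libraries, and 4 fell. The 12 macrophage markers summed to 125 to 295 CPM in HFD and 282 to 456 CPM in NC libraries. Of these 1 fell, a share near that of all genes. The 7 erythroid markers summed to 274 to 495 CPM in HFD and 160 to 301 CPM in NC libraries, with 1 called lower, Alas2. The part of these cells in the perilipin and lipase differences was not tested.

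Of the lipases, Pnpla2, which encodes ATGL, had 76.5, 84.2 and 72.6 CPM in HFD livers, against 86.3, 48.3 and 121 CPM in NC livers. The HFD libraries lay within the range of NC. Its log2 difference was -0.13 ± 0.34 (adjusted p = 0.799).

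Pnpla3 had 23, 4 and 11 counts in HFD libraries, against 15, 13 and 47 counts in NC libraries. The groups overlapped, and at such counts only a large difference could have been detected. Its log2 difference was -0.78 ± 0.78 (adjusted p = 0.494).

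Lipe, which encodes hormone-sensitive lipase, had 14.5, 14.2 and 14.2 CPM in HFD livers, against 8.35, 8.31 and 11.9 CPM in NC livers. The groups were separate, and the 3 HFD values differed by less than any other group's. The log2 difference of 0.59 ± 0.27 did not pass (adjusted p = 0.144). It passed when HFD and NC were fitted without the training groups (0.60, adjusted p = 0.031), and when HFD+AE 3 and HFD+RE 3 were left out (0.58, adjusted p = 0.0141), which leaves the Lipe values of HFD and NC as they are and changes the shared estimate of spread.

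Mgll, which encodes monoacylglycerol lipase, had 457, 382 and 568 CPM in HFD livers, against 134, 129 and 298 CPM in NC livers. The groups were separate, though NC 5 lay closer to HFD than to NC 2 and NC 4. The log2 difference of 1.33 ± 0.45 missed the threshold at an adjusted p of 0.0582. DESeq2 gave the same log2 difference with an adjusted p of 0.0156, the fit of HFD and NC alone gave 0.0227, and the fit without HFD+AE 3 and HFD+RE 3 gave 0.00788. With the length trend removed the Mgll difference was 1.42 (adjusted p = 0.0548), and without the low-count filter it was 1.32 (adjusted p = 0.167). Without NC 2, NC 4, HFD 1 or HFD 3 it had an adjusted p of 0.175, 0.186, 0.135 or 0.194, and without NC 5 it was 1.84 (adjusted p = 0.0328). It passed in 6 of 19 alternatives.

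Of the regulators of ATGL, Abhd5 passed the test and G0s2 did not. Abhd5, the activator, had 15.1, 18.4 and 13.9 CPM in HFD livers, against 22.0, 24.3 and 25.6 CPM in NC livers. All HFD libraries were below all NC libraries. Abhd5 fell by 0.60 on the log2 scale (SE 0.16, adjusted p = 0.0287), to 0.658 of its NC level. The call was lost without the low-count filter (adjusted p = 0.0699), with the length trend removed (-0.48, adjusted p = 0.0601) and when any of NC 2, NC 4, NC 5, HFD 1 or HFD 3 was left out (adjusted p of 0.0603, 0.0884, 0.0658, 0.118 and 0.139).

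G0s2, the inhibitor, had 167, 144 and 267 CPM in HFD livers, against 47.0, 18.6 and 135 CPM in NC livers. The groups were separate by a small gap, between HFD 2 and NC 5, and the NC libraries differed more from each other than those of any other group did relative to their mean. The log2 difference was 1.52 ± 0.62, with an adjusted p of 0.106. Without NC 5 it was 2.56 with an adjusted p of 0.0265, and with the length trend removed it was 1.14 with an adjusted p of 0.177.

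**Figure D2:**
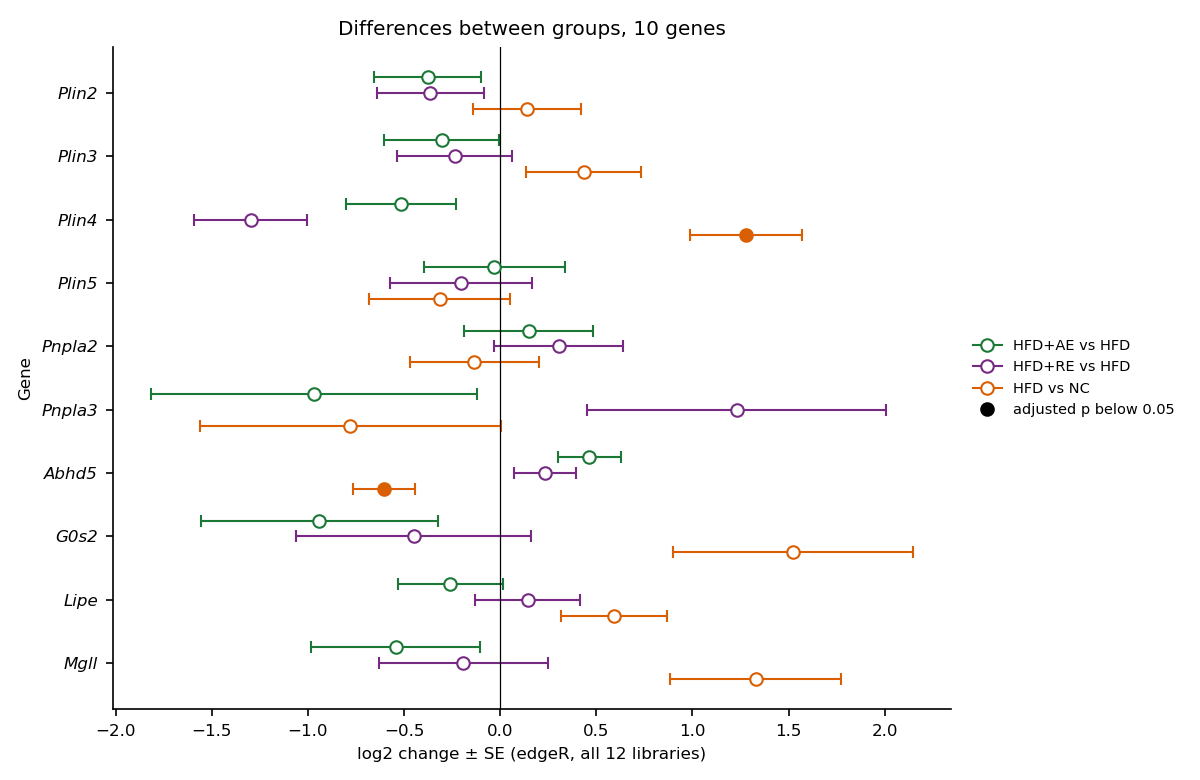
Points give the log2 change with its SE (x axis) for each of the 10 genes (y axis) in HFD+AE vs HFD, HFD+RE vs HFD and HFD vs NC, and filled points passed an adjusted p of 0.05. The filled points are Plin4, at 1.28, and Abhd5, at -0.60, both in HFD vs NC.

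Set against Pnpla2 within each library, per length, the inhibitor stood higher in HFD livers. The ratio of G0s2 TPM to Pnpla2 TPM was 7.57, 5.95 and 12.7 in HFD livers, against 1.89, 1.33 and 3.88 in NC livers. Every HFD library was above every NC library. The ratio of Abhd5 TPM to Pnpla2 TPM was 0.100, 0.111 and 0.0973 in HFD livers, against 0.129, 0.255 and 0.107 in NC livers, and these ranges overlapped. G0s2 has 871 exon bases and Pnpla2 3020, and the length measure separated the diets. The part of that measure in the G0s2 ratio was not tested. These ratios were formed after the values were seen and were given no test.

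**Figure D3:**
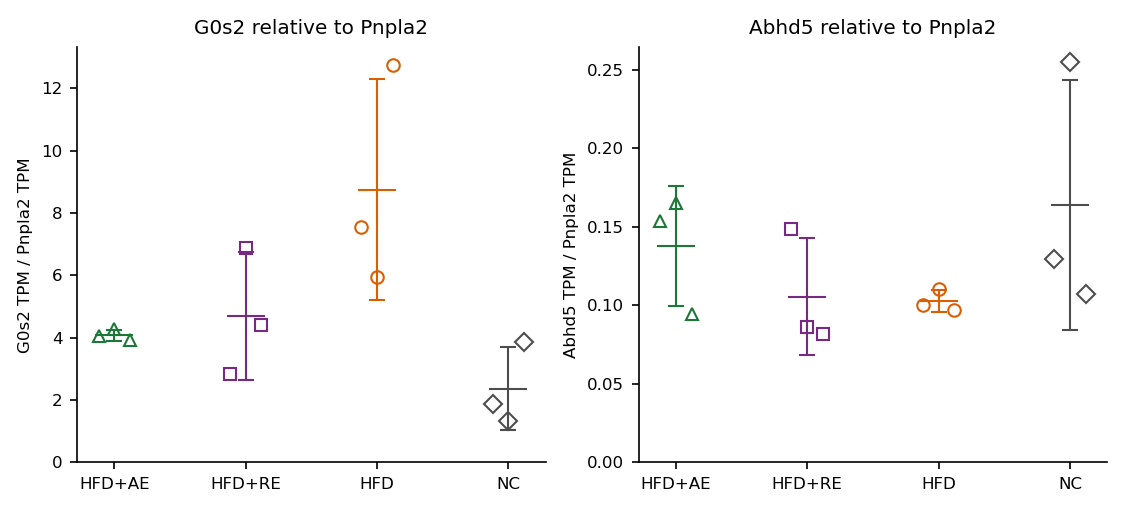
The ratio of G0s2 TPM to Pnpla2 TPM (left) and of Abhd5 TPM to Pnpla2 TPM (right) on linear y axes from 0, with symbols for libraries and lines and bars for mean and SD of 3 in the HFD+AE, HFD+RE, HFD and NC groups. On the left the HFD libraries, at 5.95 to 12.7, lie above the NC libraries, at 1.33 to 3.88, with HFD+AE at 3.91 to 4.27.

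AE training on the high-fat diet was not accompanied by a called difference in any of the 10 genes. In HFD+AE vs HFD, edgeR called 0 of 10, where 0.0492% of all tested genes were called, and DESeq2 also called 0 of 10, where it called 11.2% of all. At an unadjusted p under 0.05 there was 1 gene, Abhd5, where 26.4% of all tested genes had such a p. Its values were 19.9, 22.3 and 23.1 CPM in HFD+AE livers, against 15.1, 18.4 and 13.9 CPM in HFD livers. The groups were separate, with a log2 difference of 0.46 ± 0.16 (adjusted p = 0.105).

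G0s2 was the other separate gene, with 76.6, 84.5 and 140 CPM in HFD+AE livers, against 167, 144 and 267 CPM in HFD livers. The log2 difference was -0.94 ± 0.62 (adjusted p = 0.345). Leaving out both HFD+AE 3 and HFD+RE 3 gave -1.25 (adjusted p = 0.265). That 2 of 10 genes did not overlap compares with 32% of all tested genes. HFD+AE 3 was the highest of its group for G0s2, as it was for 7 of the other genes.

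The remaining coats and lipases overlapped between HFD+AE and HFD livers. Plin2 had 309.9, 289 and 554 CPM in HFD+AE livers, against 520, 526 and 452 CPM in HFD livers, and Plin3 had 29.4, 34.5 and 70.1 CPM in HFD+AE livers, against 63.0, 43.6 and 58.7 CPM in HFD livers. In both, HFD+AE 1 and 2 were below all HFD libraries and HFD+AE 3 was above them. Their log2 differences were -0.38 ± 0.28 and -0.30 ± 0.30 (adjusted p of 0.406 and 0.539). Without HFD+AE 3 and HFD+RE 3, Plin2 differed by -0.73 (adjusted p = 0.0332) and Plin3 by -0.78 (adjusted p = 0.0212), so these results rest on which libraries are used. That fit called 4253 of all tested genes in HFD+AE vs HFD.

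Plin4 had 83.6, 42.1 and 47.3 CPM in HFD+AE livers, against 70.7, 82.7 and 94.1 CPM in HFD livers. Here HFD+AE 1, and not HFD+AE 3, lay with the HFD libraries. Its log2 difference was -0.52 ± 0.29 (adjusted p = 0.269).

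Mgll had 246, 238 and 482 CPM and Lipe 9.30, 10.8 and 15.9 CPM in HFD+AE livers, against 457, 382 and 568 CPM for Mgll and 14.5, 14.2 and 14.2 CPM for Lipe in HFD livers. In both genes HFD+AE 3 reached the level of HFD and the other 2 libraries lay below it. The log2 differences were -0.54 ± 0.44 for Mgll and -0.26 ± 0.27 for Lipe (adjusted p of 0.450 and 0.570). With HFD+AE 3 left out they were -0.96 for Mgll and -0.52 for Lipe (adjusted p of 0.190 and 0.229). Leaving out HFD+RE 3 as well gave -0.95 and -0.50 (adjusted p of 0.0669 and 0.056). Pnpla2 had 65.5, 68.7 and 124 CPM and Plin5 39.8, 37.1 and 64.8 CPM in HFD+AE livers, again with HFD+AE 3 highest. Without both libraries the log2 difference of Pnpla2 was -0.20, against 0.15 with all, and that of Plin5 -0.32, against -0.03. Pnpla3 had 7, 10 and 3 counts, the only one of the lipases with its lowest value in HFD+AE 3.

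With RE training, Plin4 lay well below its HFD level, a difference that passed in DESeq2 and not in edgeR. Its values were 26.6, 41.8 and 32.2 CPM in HFD+RE livers, against 70.7, 82.7 and 94.1 CPM in HFD livers. The groups were far apart, and HFD+RE lay in the range of NC, at 23.3 to 44.2 CPM. The log2 difference was -1.30 ± 0.29, with an unadjusted p of 0.000627 and an adjusted p of 0.261 in edgeR. DESeq2 gave -1.31 with an adjusted p of 0.00921, and edgeR without the low-count filter gave an adjusted p of 0.02. Leaving out 1 library at a time, the log2 difference stayed between -1.48 and -1.16, with adjusted p from 0.154 to 0.829.

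In HFD+RE vs HFD, edgeR thus called 0 of the 10 genes, where 0.0109% of all tested genes were called, and DESeq2 called 1, Plin4, where it called 0.935% of all. Plin4 was also the 1 gene of the 10 with an unadjusted p under 0.05, which 8.77% of all tested genes had. Non-overlap held for 2 of the 10, Plin4 and Plin2, where 14.1% of all tested genes did not overlap. Plin2 had 294, 423 and 448 CPM in HFD+RE livers, against 520, 526 and 452 CPM in HFD livers. The gap between the groups was narrow, between HFD+RE 5 and HFD 3, and the log2 difference was -0.36 ± 0.28 (adjusted p = 0.733).

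Abhd5 had 18.4, 20.5 and 16.8 CPM in HFD+RE livers, against 15.1, 18.4 and 13.9 CPM in HFD livers, which overlapped. Its log2 difference was 0.24 ± 0.16 (adjusted p = 0.694). Plin3 had 36.9, 54.7 and 48.7 CPM and Plin5 27.4, 55.7 and 42.5 CPM in HFD+RE livers, both within or overlapping the HFD values.

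The lipases and G0s2 of the HFD+RE group were split by library. Mgll had 173, 582 and 478 CPM, Lipe 9.53, 19.7 and 18.3 CPM, G0s2 51.2, 239 and 133 CPM and Pnpla2 62.8, 120 and 105 CPM in HFD+RE 3, 4 and 5. HFD+RE 3 was the lowest of its group in all 4 genes, and it was below all HFD libraries in each. The log2 differences from HFD were -0.19 ± 0.44 for Mgll, 0.14 ± 0.27 for Lipe, -0.45 ± 0.61 for G0s2 and 0.30 ± 0.34 for Pnpla2. None passed, with adjusted p of 0.926, 0.907, 0.855 and 0.816. When HFD+AE 3 and HFD+RE 3 were left out they were 0.18 for Mgll, 0.41 for Lipe, -0.044 for G0s2 and 0.54 for Pnpla2, and none passed (adjusted p of 0.840, 0.275, 0.985 and 0.396). Pnpla3 had 5, 23 and 67 counts in HFD+RE 3, 4 and 5, a wider spread than in any other group, and its log2 difference of 1.23 ± 0.78 did not pass (adjusted p = 0.671).

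**Figure D4:**
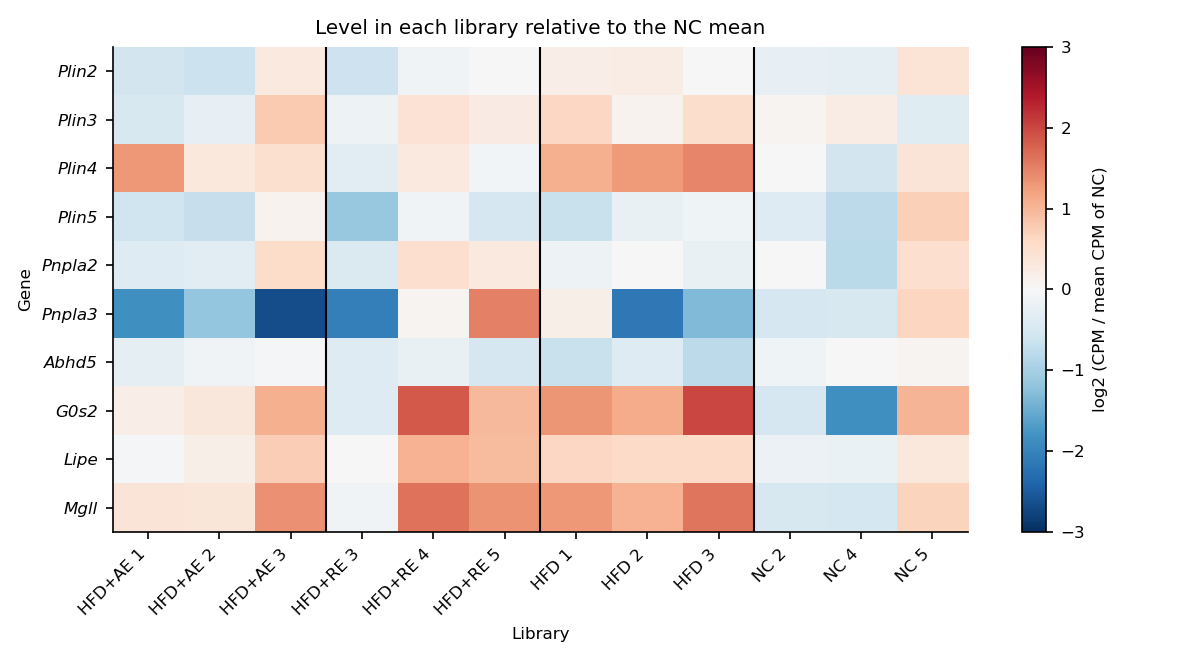
Colours give log2 of the CPM in each of the 12 libraries (x axis) over the mean CPM of the NC libraries for the 10 genes (y axis), red above and blue below the NC mean, with black lines between HFD+AE, HFD+RE, HFD and NC. Mgll is more than 1 above the NC mean in all HFD libraries and in HFD+AE 3, HFD+RE 4 and HFD+RE 5, while Plin4 is so in all HFD libraries and in HFD+AE 1.

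Between the training groups themselves, HFD+RE vs HFD+AE, no gene of the table was called by edgeR (0% of those tested), and DESeq2 called 24 (0.134%), none of them among the 10. Of the 10 genes, 2 had an unadjusted p under 0.05, as had 1468 of all tested genes (8.02%). Plin4 was lower in HFD+RE livers, at 26.6, 41.8 and 32.2 CPM, against 83.6, 42.1 and 47.3 CPM in HFD+AE livers. The groups were separate only by the gap between HFD+RE 4 and HFD+AE 2, and this was 1 of 10 genes without overlap, where 11.3% of all tested genes had none. The Plin4 log2 difference was -0.78 ± 0.29 (adjusted p = 0.606).

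Pnpla3, with 5, 23 and 67 counts in HFD+RE and 7, 10 and 3 counts in HFD+AE libraries, overlapped, with a log2 difference of 2.2 ± 0.83 (adjusted p = 0.606). Without HFD+AE 3 and HFD+RE 3, 4 of the 10 genes passed in this comparison: Pnpla3 at 2.41, Mgll at 1.13, Lipe at 0.92 and Plin3 at 0.69, with adjusted p of 0.0481, 0.0482, 0.00731 and 0.0418. Over all tested genes 4170 were called in that fit, so a call there singles out little. That fit sets the libraries with a positive length measure in HFD+AE against those with a negative one in HFD+RE, and the part of this measure in the 4 differences was not tested.

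Compared with NC, the trained groups had no called gene among the 10. In HFD+AE vs NC 0 of 10 were called by edgeR, against 1.38% of all tested genes, and 0 of 10 by DESeq2, against 4.4%. An unadjusted p under 0.05 was found for 1, Plin4, and for 14% of all tested genes. It had 83.6, 42.1 and 47.3 CPM in HFD+AE livers, against 34.5, 23.3 and 44.2 CPM in NC livers, which overlapped at HFD+AE 2 and NC 5. The log2 difference was 0.76 ± 0.29 (adjusted p = 0.241). Pnpla3 was the only gene of the 10 without overlap, where 21.8% of all tested genes had none, with 7, 10 and 3 counts in HFD+AE and 15, 13 and 47 counts in NC libraries.

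In HFD+RE vs NC 0 of 10 were called by edgeR, against 3.96% of all tested genes, and 0 of 10 by DESeq2, against 11.2%. An unadjusted p under 0.05 was found for Lipe, Mgll and Abhd5, 3 of the 10, and for 24.5% of all tested genes. Lipe differed by 0.74 ± 0.27 and Mgll by 1.14 ± 0.44 on the log2 scale (adjusted p of 0.130 and 0.143). Without HFD+AE 3 and HFD+RE 3 they passed, Lipe at 1.0 and Mgll at 1.51, with adjusted p of 0.00173 and 0.00628. In HFD+RE vs NC that fit called 5989 of all tested genes. Abhd5 had 18.4, 20.5 and 16.8 CPM in HFD+RE livers, against 22.0, 24.3 and 25.6 CPM in NC livers, and was the 1 gene of 10 without overlap, where 26.1% of all tested genes had none. Its log2 difference was -0.37 ± 0.16 (adjusted p = 0.184). The comparisons with HFD share the HFD libraries and those with NC share the NC libraries, so their values are not independent of each other.

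Ordered by mean CPM, HFD had the highest group mean for 5 genes, Plin2, Plin3, Plin4, G0s2 and Mgll. HFD+RE had the highest for Pnpla2, Pnpla3 and Lipe, and NC for Plin5 and Abhd5. Abhd5 ran from HFD, at 15.8 ± 2.30 CPM, through HFD+RE, at 18.6 ± 1.87 CPM, and HFD+AE, at 21.8 ± 1.70 CPM, to NC, at 24.0 ± 1.80 CPM. Mgll fell through the same order of groups, with 469 ± 93.2 CPM in HFD, 411 ± 212 CPM in HFD+RE, 322 ± 139 CPM in HFD+AE and 187 ± 96.3 CPM in NC livers. In none of the 10 genes were 2 groups next to each other in this order separate: all 30 such pairs overlapped.

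Mgll, Lipe and G0s2 ordered the libraries alike. Over the 12 libraries Pearson's r of log2 CPM was 0.94 for Lipe and Mgll, 0.94 for G0s2 and Mgll and 0.84 for G0s2 and Lipe, as a description of libraries that share 4 groups and a common length measure. The 6 libraries with a negative length measure, the HFD libraries, HFD+AE 3 and HFD+RE 4 and 5, had 382 to 582 CPM of Mgll. The 6 with a positive measure had 129 to 298 CPM. Whether that measure has a part in the Mgll level was not tested; the diet difference with the length trend removed is given above.

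**Figure D5:**
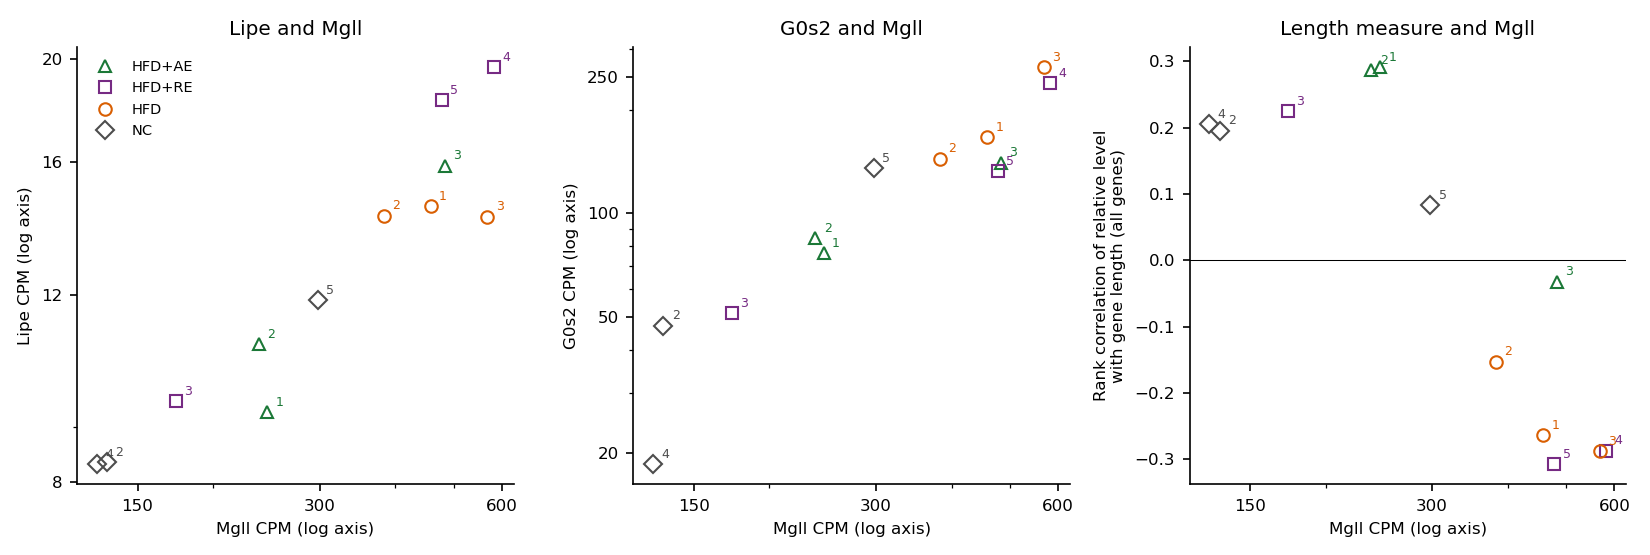
Lipe CPM (left), G0s2 CPM (middle) and the length measure (right) on the y axis against Mgll CPM on a log x axis, 1 symbol per library, numbered as in the labels and coloured for HFD+AE, HFD+RE, HFD and NC. HFD+AE 3, at 482 CPM of Mgll, lies with the HFD libraries and HFD+RE 3, at 173 CPM, with NC.

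The genes whose log2 CPM followed a member most closely over the 12 libraries were named by Pearson's r among 10499 genes with a mean log2 CPM above 1 (10500 for Pnpla3). Plin4 had no close match, its nearest being Stk39 with an r of 0.83. Abhd5 was followed most closely by Rab35 (0.97) and Ran (0.96), Mgll by Mcrip2 (0.98) and Mrps17 (0.98), Lipe by Emc6 (0.98) and Dusp28 (0.98), and G0s2 by Cd3eap (0.96) and H2-Q1 (0.96). Nearest were Myd88 for Plin2 (0.95), Nfkb2 for Plin3 (0.94), Nol9 for Plin5 (0.96), Inafm2 for Pnpla2 (0.94) and Rab9 for Pnpla3 (0.88). These are descriptions of 12 points that share libraries, groups and depth.

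A set of 7 lists of related genes, chosen with earlier results of these data known, place the 10 genes in their pathway. Their counts in HFD vs NC stand against the 8.38% of all tested genes called higher and the 7.19% called lower. Of the 9 tested genes of the PPARG-linked fat storage list, 8 rose and none fell in HFD relative to NC livers, with a median log2 change of 1.66 against 0.01 over all genes. Cidea, whose protein fuses droplets, averaged 5.80 CPM in HFD livers and 0.0940 CPM in NC livers, a log2 change of 5.84 (adjusted p = 0.00241). Its relative Cidec averaged 34.4 CPM in HFD livers and 8.37 CPM in NC livers, a log2 change of 2.04 (adjusted p = 0.00221). Fabp2, a fatty acid carrier, averaged 143 CPM in HFD and 45.2 CPM in NC livers (1.66, adjusted p = 0.00232).

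Among 16 other lipid droplet proteins, 3 rose and 1 fell, with a median of 0.08. The 3 that rose were Cidea, Cidec and Fitm1, an endoplasmic reticulum protein that promotes droplet formation, which averaged 49.6 CPM in HFD and 12.8 CPM in NC livers (1.95, adjusted p = 0.0118). Of 17 triglyceride synthesis genes, 5 rose and 1 fell (median 0.12). Mogat1, which acylates monoglyceride and so uses the substrate of Mgll, averaged 5.05 CPM in HFD and 0.389 CPM in NC livers (3.66, adjusted p = 0.00268), and Gpat2, a glycerol phosphate acyltransferase, 2.66 CPM in HFD and 1.04 CPM in NC livers (1.37, adjusted p = 0.0208). Lpin1, a phosphatidate phosphatase, fell to 214 CPM in HFD livers, against 729.8 CPM in NC livers (-1.77, adjusted p = 0.0188).

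Of 19 other hydrolases of neutral lipids, 6 fell and none rose in HFD livers, with a median of -0.36. Ces3b, a carboxylesterase of a family of near-identical copies whose reads may be shared, averaged 131 CPM in HFD and 486 CPM in NC livers (-1.89, adjusted p = 0.00377). Pnpla7, a lysophospholipase related to Pnpla2, averaged 65.3 CPM in HFD and 119 CPM in NC livers (-0.87, adjusted p = 0.0166). Lipc, hepatic lipase, averaged 76.6 CPM in HFD and 137 CPM in NC livers (-0.84, adjusted p = 0.0168).

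Of 20 genes that carry hormone signals to lipolysis, 2 fell and none rose (median -0.12), a share near that of all genes. They were the insulin receptor substrates, Irs1 at 5.57 CPM in HFD and 26.2 CPM in NC livers (-2.24, adjusted p = 0.0219) and Irs2 at 13.7 CPM in HFD and 40.3 CPM in NC livers (-1.57, adjusted p = 0.0180). Of 20 PPARA targets, 4 rose and none fell (median 0.15), among them Fgf21, a fasting hormone, at 7.62 CPM in HFD and 1.63 CPM in NC livers (2.23, adjusted p = 0.0150), Vnn1 (1.43, adjusted p = 0.0237) and the peroxisomal thiolase Acaa1b (1.06, adjusted p = 0.0359). Of 23 SREBP1c, LXR and ChREBP targets, 2 rose and 4 fell (median -0.40). Scd1, the main fatty acid desaturase of liver, fell to 1639 CPM in HFD livers, against 6951 CPM in NC livers (-2.08, adjusted p = 0.00485), and Acly (-1.50, adjusted p = 0.00990) and Mylip (-1.09, adjusted p = 0.0363) fell too. Of the 18 genes of these lists named for HFD vs NC, Cidea, Cidec, Fabp2, Mogat1, Ces3b and Scd1 kept their call whichever 1 of the 12 libraries was left out. The other 12 lost it without at least 1 of the HFD or NC libraries. With the library number as a replicate block, Scd1 lost its call too (adjusted p = 0.0508).

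In the training comparisons 1 gene of these lists passed in edgeR. In HFD+AE vs HFD, Cidec fell to 7.40 CPM in HFD+AE livers, against 34.4 CPM in HFD livers, a log2 change of -2.22 ± 0.28 (adjusted p = 0.0222). Its call was lost without HFD 1, HFD+AE 1, HFD+AE 2 or NC 4 (adjusted p of 0.104, 0.122, 0.176 and 0.0567), with log2 changes from -2.37 to -1.88 over all libraries left out in turn. No other of the 120 tested genes of the 7 lists was called by edgeR there, and none in HFD+RE vs HFD or HFD+RE vs HFD+AE. DESeq2 called 17 of the 120 in HFD+AE vs HFD, 8 in HFD+RE vs HFD and 2 in HFD+RE vs HFD+AE, where it called 11.2%, 0.935% and 0.134% of all tested genes. With HFD+AE 3 and HFD+RE 3 left out, edgeR called 23, 0 and 22 of them (19.2%, 0% and 18.3%). Over all tested genes that fit called 4253, 5 and 4170. The median of the fat storage list was -0.47 in HFD+AE vs HFD and -0.83 in HFD+RE vs HFD, and that of the other neutral lipid hydrolases 0.44 and 0.12.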

How the data were processed

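Liver RNA-seq counts per gene were used as deposited by the authors, in 1 table for the 12 libraries. Per the file headers and the submitters' processing notes, reads were counted with featureCounts 2.0.6 after fastp and HISAT2 2.2.1 on mm10, and the notes also name DESeq2 1.40.1. How strand and multi-mapping reads were handled, and which annotation release was used, is not given in the sources used here. Of the deposited count values from 1 to 10, 72.3% were even, so counts may not be independent single reads and intervals from counting error were not given. No pair of libraries agreed within sampling noise (smallest chi-square per degree of freedom 63.6 over 17086 genes).

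The main test was that of edgeR 4.0.16 under R 4.3.3 (quasi-likelihood F-test, robust dispersion, TMM scaling, default low-count filter by group with a minimum count of 10), with all 12 libraries in 1 model and a mean per group, since a group of 3 libraries gives a poor estimate of spread by itself. Calls required a Benjamini-Hochberg adjusted p below 0.05 over the 18305 genes tested. Adjusted p-values are edgeR's where no tool is named. Levels are CPM after TMM scaling; TPM used the table's exon lengths. On simulated data for HFD vs NC (17794 genes), 33 of 100 2-fold and 95 of 100 4-fold changes were recovered, with 5.88% of the calls false. The simulated counts were independent between genes, with no length trend and far fewer changed genes than were called in the data. These rates need not hold for the data.

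The alternatives were DESeq2 1.42.0, its size factors, no low-count filter, the 2 groups alone, a replicate block, a length trend (lowess in R, as edgeR offsets) removed from each library, leaving out each library, and leaving out HFD+AE 3 and HFD+RE 3 together. The 10 genes and all lists were chosen with earlier results of these data known. The genes named were the 10, up to 3 called genes per list and comparison by smallest p, and the nearest genes by Pearson's r. The ratios between genes were chosen after their values were seen. Sequences are from RefSeq (GRCm38.p6), and all 10 genes matched by symbol.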

Additional observations from a re-analysis of the deposited data

How the results depend on the processing

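The direction of Plin4 and Abhd5 in HFD vs NC held in all alternatives run, from 1.06 to 1.52 for Plin4 and from -0.73 to -0.52 for Abhd5 when 1 library was left out; the calls did not hold in all, as given above. Of the 10 genes, 2 were called in HFD vs NC, where 2851 of 18305 tested genes were. The count was 1 without the low-count filter and 1 with the length trend removed, while DESeq2 called Plin4, Abhd5 and Mgll. It was 4 with the 2 groups alone, where 4928 of all genes were called. It was also 4 without HFD+AE 3 and HFD+RE 3, where 6258 of all genes were called, so these 2 counts single out little. With 1 library left out it was 0 to 3, where 411 to 4462 of all genes were called. In HFD+RE vs HFD 1 was called with DESeq2 and 1 without the filter. Without HFD+AE 3 and HFD+RE 3, 2 were called in HFD+AE vs HFD, 4 in HFD+RE vs HFD+AE and 2 in HFD+RE vs NC, and 0 to 2 in the last with 1 library left out.

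Counts over all genes moved more. HFD vs NC had 2851 called, 4928 with the 2 groups alone, 6258 without HFD+AE 3 and HFD+RE 3, and 411 to 4462 with 1 library left out. HFD+AE vs HFD had 9, against 2088 with DESeq2, 953 without the filter, 95 with the length trend removed, 649 with the 2 groups alone, 4253 without both libraries, and 0 to 1930 with 1 left out. HFD+RE vs HFD had 2, against 185 with DESeq2, 43 without the filter, 5 without both libraries, and 2 to 53 with 1 left out. HFD+RE vs HFD+AE had 0, against 24 with DESeq2, 2 without the filter, 4170 without both libraries, and 0 to 2 with 1 left out. HFD+AE vs NC had 253, against 791 with DESeq2, 408 without the filter, 82 with the 2 groups alone, and 44 to 373 with 1 left out. HFD+RE vs NC had 724, against 1940 with DESeq2, 110 with the 2 groups alone, 5989 without both libraries, and 112 to 3983 with 1 left out. The cause was not tested.

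Same-numbered HFD and HFD+AE libraries deviated from their group means with correlations of -0.12, 0.11 and 0.09. Other same-numbered pairs ran from -0.50, for HFD+AE 3 and HFD+RE 3, to 0.16, for NC 5 and HFD+RE 5. With 3 libraries per group these values cannot settle whether the replicate numbers pair the samples. With the number as a replicate block, 325 genes and 0 of the 10 were called in HFD vs NC (Plin4 at an adjusted p of 0.0844, Abhd5 at 0.248), 2 genes in HFD+AE vs HFD (Cidec at an adjusted p of 0.0571), 1 in HFD+RE vs HFD, 1 in HFD+AE vs NC and 15 in HFD+RE vs NC. Log2 differences that changed sign under the block were, in HFD vs NC, Plin5 (0.29), Pnpla2 (0.24) and Pnpla3 (0.17); in HFD+RE vs HFD, Pnpla2 (-0.042) and Lipe (-0.41); in HFD+RE vs HFD+AE, Plin2 (-0.35), Plin3 (-0.089), Pnpla2 (-0.17), G0s2 (-0.51), Lipe (-0.13) and Mgll (-0.57); in HFD+AE vs NC, Plin2 (0.063) and Plin5 (0.25); and in HFD+RE vs NC, Plin4 (0.0014).

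The other changes of sign were also of differences that were not called. With the length trend removed they were Plin5 in HFD+AE vs HFD (0.15), Plin2 in HFD+RE vs HFD+AE (-0.0099), Pnpla2 in HFD+AE vs NC (-0.024) and Plin4 in HFD+RE vs NC (0.11), and with the 2 groups alone Pnpla2 in HFD+AE vs NC (-0.0041). Without HFD+AE 3 and HFD+RE 3 they were Pnpla2 in HFD+AE vs HFD (-0.20), Plin5 (0.034) and Mgll (0.18) in HFD+RE vs HFD, Plin5 in HFD+RE vs HFD+AE (0.35), Plin3 (-0.35) and Pnpla2 (-0.34) in HFD+AE vs NC, and Plin4 in HFD+RE vs NC (0.12). With 1 library left out, HFD vs NC ran from -0.59 to 0.26 for Plin5 and -0.42 to 0.21 for Pnpla2. HFD+AE vs HFD ran from -0.33 to 0.11 for Plin5 and -0.22 to 0.32 for Pnpla2. HFD+RE vs HFD ran from -0.46 to 0.028 for Plin5, -0.52 to 0.18 for Mgll and -0.038 to 0.41 for Lipe. HFD+RE vs HFD+AE ran from -0.15 to 0.36 for Plin2, -0.16 to 0.54 for Plin3, -0.043 to 0.51 for Pnpla2, -0.44 to 0.11 for Plin5 and -0.13 to 0.89 for G0s2. HFD+AE vs NC ran from -0.35 to 0.35 for Pnpla2, -0.60 to 0.015 for Plin2, -0.36 to 0.36 for Plin3 and -0.64 to 0.23 for Plin5. HFD+RE vs NC ran from -0.11 to 0.51 for Pnpla2, -0.34 to 0.031 for Plin2, -0.23 to 0.22 for Plin4, -0.79 to 0.054 for Plin5 and -0.62 to 0.95 for Pnpla3.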

Other observations

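Some genes of the 7 lists were called between the trained groups and NC, where none of the 10 was called. Of the 120 tested genes of the 7 lists, 5 were called in HFD+AE vs NC (4.17%), against 1.38% of all tested genes. In HFD+RE vs NC 11 of the 120 were called (9.17%), against 3.96% of all. The lists were chosen with earlier results of these data known, so these shares do not test the lists. In HFD+AE vs NC the count was 0 with the replicate block and 17 with DESeq2. In HFD+RE vs NC it was 0 with the block, 0 with the 2 groups alone, and 43 without HFD+AE 3 and HFD+RE 3. The 7 genes named here are some of those called with all libraries. In HFD+RE vs NC, Srebf1, the regulator of fatty acid synthesis, averaged 454 CPM in HFD+RE livers and 97.6 CPM in NC livers, a log2 change of 2.22 ± 0.39 (edgeR adjusted p = 0.0119). Adrb3, the receptor through which catecholamines start lipolysis in adipocytes, averaged 8.31 CPM in HFD+RE and 3.19 CPM in NC livers (1.39 ± 0.31, adjusted p = 0.0299). Pdk4, a kinase that spares glucose, averaged 1.79 CPM in HFD+RE and 6.67 CPM in NC livers (-1.90 ± 0.37, adjusted p = 0.0174), and Insig2, which retains SREBPs, 100.7 CPM in HFD+RE and 220.3 CPM in NC livers (-1.13 ± 0.21, adjusted p = 0.0154). In HFD+AE vs NC, Dgat2, which makes the final step of triglyceride synthesis, averaged 909 CPM in HFD+AE and 479 CPM in NC livers (0.92 ± 0.20, adjusted p = 0.0412). Ppara averaged 248 CPM in HFD+AE and 131 CPM in NC livers (0.92 ± 0.18, adjusted p = 0.0252), and the lipoprotein receptor gene Vldlr 10.8 CPM in HFD+AE and 2.24 CPM in NC livers (2.26 ± 0.36, adjusted p = 0.0119). None of these 7 was called in the comparison of its trained group with HFD. Of the 7, Srebf1 kept its call whichever 1 library was left out. The calls were lost in 10 of 12 such fits for Dgat2, 6 for Adrb3, 5 for Ppara, 3 for Insig2, 2 for Pdk4 and 2 for Vldlr. Over all 19 alternatives, Srebf1 was called in 17, Vldlr in 16, Pdk4 in 15, Insig2 in 14, Ppara in 12, Adrb3 in 11 and Dgat2 in 7.

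Within the perilipins, the ratio of Plin5 TPM to Plin2 TPM was 0.197 to 0.216 in HFD+AE livers, 0.157 to 0.222 in HFD+RE livers, 0.123 to 0.205 in HFD livers and 0.157 to 0.278 in NC livers. The ratio of Plin4 TPM to Plin2 TPM was 0.0472 to 0.149 in HFD+AE livers, 0.0398 to 0.0547 in HFD+RE livers, 0.0752 to 0.115 in HFD livers and 0.0343 to 0.0496 in NC livers. All 3 HFD libraries were above all NC and all HFD+RE libraries in this second ratio, while the HFD+AE libraries spanned both. The ratios were chosen after their values were seen and carry no test.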
